A study of Mus musculus with 9 samples.

Results

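The genes described here are 10 targets and regulators of cyclic AMP (cAMP) signalling, taken by name from a count table of 54532 mouse gene identifiers: Sik1, Crtc2, Pde4b, Pde4d, Crem, Slc25a25, Ppargc1a, Nr4a1, Nr4a2 and Nr4a3. All 10 were found, and all 10 were among the 15224 genes with enough reads to be tested. The list was drawn up with a peak at 60 days in some of its genes already known, so differences that involve day 60 are given below as descriptions and without a test. The comparison of 90 with 30 days does not use the 60-day samples and was tested.

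RNA was sequenced in bulk from sections of submandibular salivary gland from wild-type mice irradiated with 10 Gy. Glands were taken 30, 60 or 90 days later, with 3 libraries at each time. All 9 samples were irradiated, and unirradiated glands were not analysed here, so time since irradiation and age cannot be told apart. The labels give no age, sex, field of irradiation or hour of harvest. They do not state which animal gave which library, so p-values measure the spread between these samples, which may be partly technical. In a whole gland, fewer cells of a type and less RNA per cell cannot be told apart.

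Hormones and transmitters that act on Gs-coupled receptors switch on adenylyl cyclases, which make cAMP. cAMP activates protein kinase A, which phosphorylates the transcription factor CREB on cAMP response elements, and Crtc coactivators enter the nucleus and join it. Several of the genes switched on in this way act back on the signal: Sik1 keeps Crtc proteins in the cytoplasm, Pde4 enzymes break down cAMP, and a short product of Crem represses the same elements. In salivary glands, noradrenaline from sympathetic nerves acts on beta receptors, and cAMP drives the release of stored secretory protein.

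Some of these genes carry in their promoter the letters of the element through which CREB acts, and the stretches that hold them are shown first. A table of RefSeq promoters on GRCm38 (250 bases before to 50 bases after each transcription start, 32851 windows) held 12 windows for 7 of the 10 genes. The letters searched, on both strands, were the full palindromic element TGACGTCA and the shorter site TGACG or its complement CGTCA, counted outside full elements. At least 1 of these was present in 20.8% of all windows and in 6 of the 12 windows of the listed genes. The genes were listed as targets and regulators of cAMP signalling, so their share is not independent of that choice. The 5 stretches printed here lie before the start, hold no annotated exon base, and show elements in capitals, 5′ to 3′ on the strand of the gene.
Slc25a25 (chr2:32424067-32424316, minus strand): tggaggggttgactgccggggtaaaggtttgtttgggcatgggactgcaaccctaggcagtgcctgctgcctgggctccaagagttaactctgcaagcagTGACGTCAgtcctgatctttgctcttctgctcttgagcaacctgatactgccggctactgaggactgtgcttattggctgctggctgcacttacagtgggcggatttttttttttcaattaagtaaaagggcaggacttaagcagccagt
Nr4a1 (chr15:101266596-101266845, plus strand): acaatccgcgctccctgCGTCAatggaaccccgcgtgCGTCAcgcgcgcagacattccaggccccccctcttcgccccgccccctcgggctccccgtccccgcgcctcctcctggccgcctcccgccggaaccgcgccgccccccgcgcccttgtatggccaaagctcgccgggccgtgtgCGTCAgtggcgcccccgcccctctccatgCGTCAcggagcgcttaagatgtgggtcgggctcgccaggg
Nr4a2 (chr2:57124004-57124253, minus strand): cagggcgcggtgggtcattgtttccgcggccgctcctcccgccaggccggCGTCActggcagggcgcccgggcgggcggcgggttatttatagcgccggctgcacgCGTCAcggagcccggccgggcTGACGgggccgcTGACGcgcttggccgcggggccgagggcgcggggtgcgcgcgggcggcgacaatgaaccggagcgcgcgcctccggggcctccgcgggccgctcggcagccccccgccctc
Nr4a3 (chr4:48045055-48045152, plus strand): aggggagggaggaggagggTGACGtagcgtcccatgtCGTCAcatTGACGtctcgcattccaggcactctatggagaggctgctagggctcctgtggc
Ppargc1a (chr5:51567727-51567975, minus strand): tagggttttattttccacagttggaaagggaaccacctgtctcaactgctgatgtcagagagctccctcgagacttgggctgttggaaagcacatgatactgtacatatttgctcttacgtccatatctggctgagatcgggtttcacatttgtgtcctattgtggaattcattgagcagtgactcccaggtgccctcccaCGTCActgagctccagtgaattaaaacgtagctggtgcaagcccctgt

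Slc25a25 carried the only full element, 150 bases before the start, in 1 of its 3 windows, whereas 1.79% of all windows held a full element. Its other windows held no element. The window with the element held no exon base of the GENCODE M21 annotation, also not after the start, so that annotation has no transcript from this RefSeq start. Each of the 3 Nr4a genes had 4 short sites in its window, and 0.627% of all windows had at least 3 elements. In Nr4a1 the sites began 233, 213, 69 and 40 bases before the start. In Nr4a2 they began 200, 144, 123 and 111 bases before it, and in Nr4a3 231, 213, 205 and 147 bases before it, the last outside the stretch shown. The Nr4a windows were rich in G and C (72.3% in Nr4a1, 81.7% in Nr4a2 and 64.7% in Nr4a3, against a median of 52.7% over all windows), and base composition sets how often such letters occur. Ppargc1a had 1 short site 49 bases before its start, Pde4b had 1 at 34 bases, and the window of Pde4d had none. The response element of the Nr4a receptors themselves, AAAGGTCA, was in 1.51% of all windows and in none of the 12. These matches describe letters in a window and not binding.

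The same letters were then counted over the wider table, as a description. Among 11031 tested genes with a promoter window, 378 had a full element, and 9 of those (2.38%) had all 60-day values above all others, against 1.89% of the 11031. The 158 genes with at least 3 elements included 5 such genes (3.16%), and 1.91% of the 7285 genes with no element did so. The median log2 difference of day 60 from the mean of days 30 and 90 was 0.03 for genes with a full element and 0.00 for genes with none.

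Per kilobase of merged exon, Nr4a1 was the most abundant of the 10, with a mean of 19.0 CPM per kb (reads of a gene as a share of its library, scaled between libraries by the TMM method) over the 9 libraries. Its lowest library, 15.2 CPM per kb, lay above the highest library of every other gene of the list. Crtc2 (5.61), Ppargc1a (5.15), Sik1 (4.48), Pde4b (3.76), Nr4a2 (3.27) and Slc25a25 (3.25 CPM per kb) followed, and neighbours in this order overlapped in their range over libraries. Pde4d had a mean of 2.04 CPM per kb, and the 2 scarcest genes were Crem (0.788) and Nr4a3 (0.661), whose ranges overlapped. The smallest count behind any value of the list was 37 reads (Crem in 30-day sample 1).

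**Figure D1:**
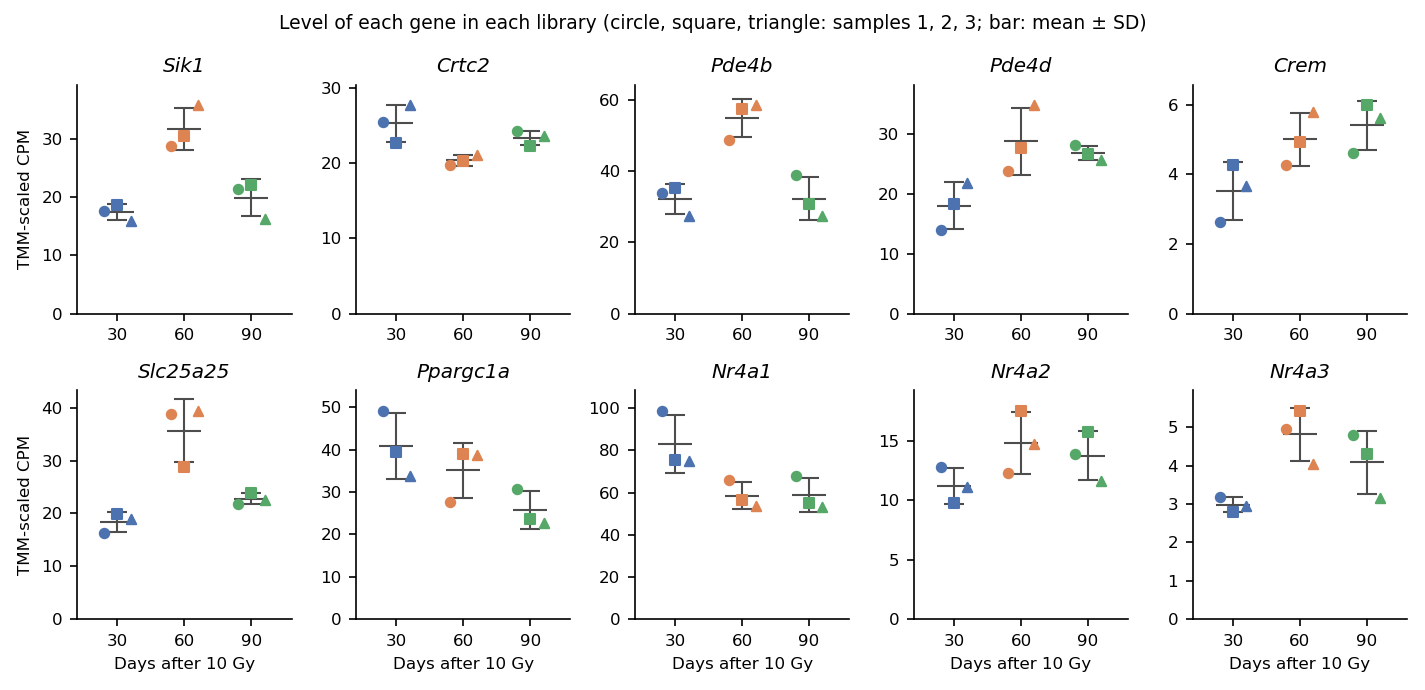
Level of each of the 10 genes in TMM-scaled CPM (y axis, from 0) against days after 10 Gy (x axis), with 1 point per library and the mean ± SD of 3. Sik1, Pde4b and Slc25a25 have all 3 points of day 60 above all others, Crtc2 has them below all others, and Nr4a1 and Ppargc1a are lower at 90 than at 30 days.

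The kinase and the coactivator that oppose each other in this circuit were described first. Sik1 (ENSMUSG00000024042, chr17:31844250-31855804, minus strand, GRCm38) encodes salt-inducible kinase 1. Its level was 17.7, 18.6 and 15.9 CPM in 30-day samples 1 to 3, 28.7, 30.5 and 35.7 CPM at 60 days, and 21.4, 22.0 and 16.2 CPM at 90 days. All 3 values of day 60 were above the other 6, and the values of days 30 and 90 overlapped. The log2 difference was 0.86 ± 0.14 (SE) from 30 to 60 days and -0.67 ± 0.13 from 60 to 90 days. Between 30 and 90 days it was 0.20 ± 0.14 (edgeR quasi-likelihood test, adjusted p = 0.514), with an interval of 2 SE from -0.08 to 0.47.

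Crtc2 (ENSMUSG00000027936, chr3:90254163-90264125, plus strand) encodes a coactivator of CREB that salt-inducible kinases phosphorylate. Its level was 25.4, 22.7 and 27.6 CPM at 30 days, 19.7, 20.2 and 21.1 CPM at 60 days, and 24.2, 22.3 and 23.5 CPM at 90 days. It was the only gene of the list whose 60-day values were below all others. The log2 difference was -0.31 ± 0.11 from 30 to 60 days and 0.20 ± 0.11 from 60 to 90 days. Between 30 and 90 days it was -0.12 ± 0.11 (edgeR adjusted p = 0.683), and its sign turned (0.11) when libraries were scaled by their totals alone. The ratio of Sik1 to Crtc2 counts within a library, which does not depend on scaling, had a day-30 mean of 0.696 ± 0.122, a day-60 mean of 1.55 ± 0.123 and a day-90 mean of 0.854 ± 0.154 (SD over 3 libraries).

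The phosphodiesterases of the list degrade cAMP and belong to the family that is blocked by rolipram. Pde4b (ENSMUSG00000028525, chr4:102087543-102607259, plus strand) measured 33.7, 35.2 and 27.4 CPM at 30 days, 48.7, 57.3 and 58.4 CPM at 60 days, and 38.8, 30.6 and 27.3 CPM at 90 days. All 60-day values were above the other 6. On the log2 scale the difference was 0.77 ± 0.13 from 30 to 60 days and -0.76 ± 0.13 from 60 to 90 days. The means of days 30 and 90 were close (32.1 ± 4.12 and 32.2 ± 5.96 CPM, SD over 3 libraries), with a log2 difference of 0.01 ± 0.13 (edgeR adjusted p = 0.980) and an interval of 2 SE from -0.26 to 0.28.

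Pde4d (ENSMUSG00000021699, chr13:108449948-109953461, plus strand) encodes another enzyme of the family. Its level was 13.9, 18.3 and 21.8 CPM at 30 days, 23.8, 27.6 and 34.8 CPM at 60 days, and 28.1, 26.6 and 25.7 CPM at 90 days. The values of both later times were above all 30-day values, and those of days 60 and 90 overlapped. From 30 to 60 days Pde4d differed by 0.67 ± 0.16 on the log2 scale and from 60 to 90 days by -0.10 ± 0.15. Between 30 and 90 days it was 0.57 ± 0.16 (edgeR adjusted p = 0.0508), just outside the threshold of 0.05. Under 8 of 19 other settings the adjusted p fell under the threshold, and over all 19 it ran from 0.000732 to 0.252, the latter without 30-day sample 1 (log2 difference 0.42).

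Crem (ENSMUSG00000063889) encodes the cAMP response element modulator, and its internal promoter gives rise to the repressor ICER. The table counts whole genes, so ICER could not be separated from the longer forms. Its level was 2.62, 4.28 and 3.67 CPM at 30 days, 4.27, 4.93 and 5.80 CPM at 60 days, and 4.62, 5.98 and 5.62 CPM at 90 days. Every 90-day value was above every 30-day value. The log2 difference from 30 to 90 days was 0.61 ± 0.23 (edgeR adjusted p = 0.173), while day 60 exceeded day 30 by 0.50 ± 0.23. Crem shares 472 exon bases with Gm6225 on the opposite strand, which had 43 counts over the 9 libraries against 941 for Crem. Use of strand in counting is not given in the sources used here.

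The mitochondrial branch of the list holds a carrier and a coactivator. Slc25a25 (ENSMUSG00000026819, chr2:32414487-32451445, minus strand) encodes a calcium-regulated carrier that exchanges ATP-magnesium for phosphate across the inner mitochondrial membrane. Its level was 16.2, 19.9 and 18.9 CPM at 30 days, 38.7, 28.8 and 39.4 CPM at 60 days, and 21.8, 23.9 and 22.6 CPM at 90 days. The 3 times did not overlap at all, with day 60 above day 90 and day 90 above day 30. Its difference from 30 to 60 days was the largest of the 10 genes on the log2 scale (0.96 ± 0.13), and from 60 to 90 days it was -0.65 ± 0.13. Between 30 and 90 days the log2 difference was 0.31 ± 0.13 (edgeR adjusted p = 0.234). It shares 379 exon bases with Naif1 on the opposite strand, which had 628 counts over all libraries against 5153 for Slc25a25.

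Ppargc1a (ENSMUSG00000029167, chr5:51454250-51567726, minus strand) encodes PGC-1 alpha, a coactivator that promotes mitochondrial biogenesis and is a classical CREB target in liver and muscle. Its level was 49.2, 39.5 and 33.9 CPM at 30 days, 27.7, 39.0 and 38.8 CPM at 60 days, and 30.8, 23.8 and 22.7 CPM at 90 days. The 90-day values were below all 30-day values, and 60-day values overlapped both. It fell from 30 to 90 days by 0.66 ± 0.16 on the log2 scale (edgeR adjusted p = 0.0373), to 0.633 of its 30-day level. The log2 difference was -0.21 ± 0.16 from 30 to 60 days and -0.45 ± 0.16 from 60 to 90 days.

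The Nr4a genes encode orphan nuclear receptors that are induced rapidly by cAMP and other stimuli. Nr4a1 (ENSMUSG00000023034, chr15:101254269-101274795, plus strand), also called Nur77, measured 98.7, 75.3 and 75.0 CPM at 30 days, 65.8, 56.3 and 53.7 CPM at 60 days, and 67.9, 55.2 and 53.4 CPM at 90 days. Every later value was below every 30-day value, and days 60 and 90 overlapped. Nr4a1 fell from 30 to 90 days by 0.49 ± 0.13 on the log2 scale (edgeR adjusted p = 0.0366), to 0.710 of its 30-day level. The log2 difference was -0.50 ± 0.13 from 30 to 60 days and 0.01 ± 0.13 from 60 to 90 days.

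Nr4a2 (ENSMUSG00000026826, chr2:57106830-57124003, minus strand), also called Nurr1, measured 12.8, 9.75 and 11.1 CPM at 30 days, 12.3, 17.5 and 14.7 CPM at 60 days, and 13.9, 15.7 and 11.6 CPM at 90 days. The 3 times overlapped, and the log2 difference from 30 to 90 days was 0.30 ± 0.16 (edgeR adjusted p = 0.365). Nr4a3 (ENSMUSG00000028341, chr4:48045153-48086447, plus strand), also called Nor1, measured 3.19, 2.79 and 2.96 CPM at 30 days, 4.96, 5.43 and 4.05 CPM at 60 days, and 4.79, 4.30 and 3.16 CPM at 90 days. Its 60-day values were above all 30-day values, with a log2 difference of 0.69 ± 0.24, and its log2 difference from 30 to 90 days was 0.46 ± 0.24 (edgeR adjusted p = 0.340).

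**Figure D2:**
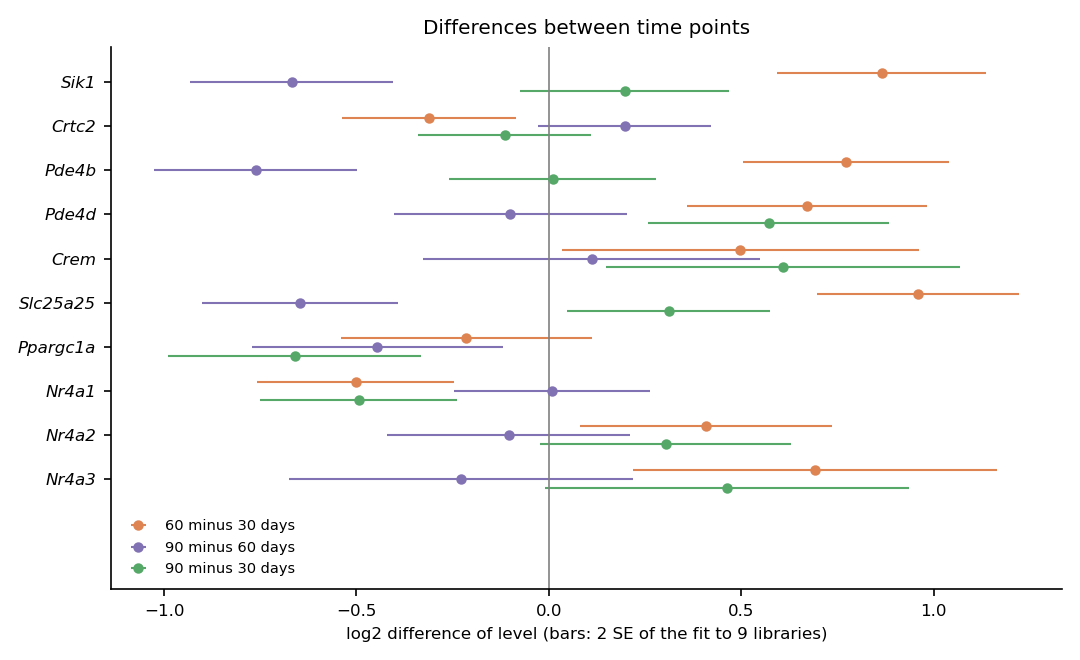
log2 difference of level between time points for each of the 10 genes (x axis), as fitted to all 9 libraries, with bars of 2 SE. Sik1, Pde4b and Slc25a25 lie above 0 from 30 to 60 days and below 0 from 60 to 90 days. Their bars are clear of 0 in both steps, which holds for no other gene of the list. Nr4a1 and Ppargc1a lie below 0 in the comparison of 90 with 30 days.

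Counted together in the comparison of 90 with 30 days, 2 of the 10 genes fell (Nr4a1 and Ppargc1a), none rose, and 3.57% of all 15224 tested genes changed (1.81% higher and 1.77% lower). At an unadjusted p under 0.05, 5 of the 10 and 2560 of all genes (16.8%) differed, and DESeq2 called 1 gene higher (Pde4d). The values of the 2 times did not overlap in 3 genes that were higher at 90 days (Pde4d, Slc25a25 and Crem) and in 2 that were lower (Nr4a1 and Ppargc1a), against 11.4% and 11.8% of all genes. The median log2 difference of the 10 was 0.25, and of all tested genes 0.01. Both calls were lost when any of 5 single libraries was left out: Nr4a1 then had an adjusted p of 0.230 without 30-day sample 1, 0.0547 without 30-day sample 2, 0.0631 without 60-day sample 2, 0.170 without 90-day sample 2 and 0.169 without 90-day sample 3. For Ppargc1a the corresponding values were 0.174, 0.0951, 0.0514, 0.169 and 0.148. Scaling by library totals alone, which moved the median of all genes to 0.24, gave log2 differences of -0.25 for Nr4a1 (adjusted p = 0.387) and -0.41 for Ppargc1a (adjusted p = 0.228), and split all calls into 406 higher and 34 lower against 275 and 269 with TMM. limma-voom gave Nr4a1 an adjusted p of 0.0546.

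At 60 days, 3 of the 10 genes had every value above all others (Sik1, Pde4b and Slc25a25) and 1 had every value below (Crtc2). Over all tested genes these shares were 1.82% and 1.9%, but the list was chosen with this peak known, so nothing is read from the counts. Likewise, 5 of the 10 had every 60-day value above every 30-day value and 2 had every one below, where these shares were 8.65% and 8.22% of all genes. From 60 to 90 days 1 was higher and 3 were lower without overlap, against 8.3% and 7.64% of all genes. Against the mean of days 30 and 90, day 60 was 1.70-fold higher in Sik1, 1.70-fold in Pde4b and 1.74-fold in Slc25a25. The median log2 difference of the 10 genes in this contrast was 0.32, with 8 of 10 above 0, and 0.01 over all genes. Nr4a1 (-0.26 ± 0.11) and Crtc2 (-0.25 ± 0.10) were the 2 below 0.

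Across the 9 libraries the genes did not move as 1 group. The median Pearson r of log2 CPM over the 45 pairs was 0.36, and these coefficients are descriptions over libraries that share 3 time points and the same scaling. Sik1 went with Pde4b (0.94) and Slc25a25 (0.89), and against Crtc2 (-0.83). Pde4d went with Crem (0.86), and both went against Nr4a1 (-0.89 and -0.96). Nr4a2 and Nr4a3 went together (0.80), and Nr4a1 went with Ppargc1a (0.62) rather than with Nr4a2 (-0.48) or Nr4a3 (-0.46).

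The genes with the most similar course were found among 13010 genes with a mean of at least 1 CPM, by Pearson r over the same 9 libraries. For Sik1 they were Stim1 (0.96), the calcium sensor of the endoplasmic reticulum that opens store-operated entry, Tent5a (0.95) and Ccn1 (0.94), a secreted matricellular protein. Slc25a25 shared 2 of these, Ccn1 (0.95) and Stim1 (0.94), after Pura (0.97). For Pde4b they were Zscan22 (0.93), Exoc7 (0.92), a subunit of the exocyst, and Dusp5 (0.92), a phosphatase of ERK. Ppargc1a was closest to Ipo5 (0.98), Abl2 (0.97) and Ankrd12 (0.97), and Nr4a1 to Ap2a1 (0.997), H1f0 (0.98) and Camsap3 (0.98). Stim1 itself had means of 62.6, 68.5 and 64.8 CPM at 30, 60 and 90 days, a narrower range than the 17.4, 31.7 and 19.9 CPM of Sik1, so a high r reflects shape and not size.

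Within each family, shares of the summed counts per kb do not depend on how libraries are scaled. Nr4a1 made up 87.8% ± 0.832 of the 3 Nr4a transcripts in the 30-day libraries, 78.8% ± 3.80 in the 60-day and 80.4% ± 2.63 in the 90-day libraries (SD over 3), and no later library reached a 30-day library. The share of Nr4a2 was 10.3%, 17.4% and 16.3%, and that of Nr4a3 was 1.87%, 3.80% and 3.25%. In counts, Nr4a1 exceeded Nr4a3 by 27.8 ± 2.89 times at 30 days, 12.3 ± 1.67 times at 60 days and 14.6 ± 2.05 times at 90 days.

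Among Pde4a, Pde4b and Pde4d, the share of Pde4b was 25.3% ± 2.69, 35.2% ± 0.935 and 23.2% ± 3.35 at 30, 60 and 90 days. Pde4a, the most abundant of them, had 62.2%, 48.7% and 59.6% of the sum, and its level showed no called difference (57.2, 54.9 and 60.4 CPM). The ratio of Pde4b to Pde4d counts was 1.87 ± 0.584 at day 30, with libraries from 1.26 to 2.42 that overlapped both later times. It was 1.93 ± 0.219 at day 60 and 1.20 ± 0.164 at day 90, and these did not overlap. Among the 3 salt-inducible kinases the share of Sik1 was 34.8% ± 3.11, 50.1% ± 0.691 and 41.3% ± 3.30 at the 3 times, and every 60-day library was above every other. Sik2 (15.5, 15.5 and 12.2 CPM) and Sik3 (44.3, 42.1 and 38.9 CPM) had no called difference. Crtc2 held 65.2%, 63.4% and 64.1% of the Crtc transcripts at the 3 times. The share of Crtc1 was 17.67%, 16.47% and 15.08%, and that of Crtc3 was 17.15%, 20.13% and 20.86%. Every later library had a higher Crtc3 share than every 30-day library. Crtc1 had means of 18.7, 14.5 and 15.0 CPM (60 against 30 days, edgeR adjusted p = 0.352).

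**Figure D3:**
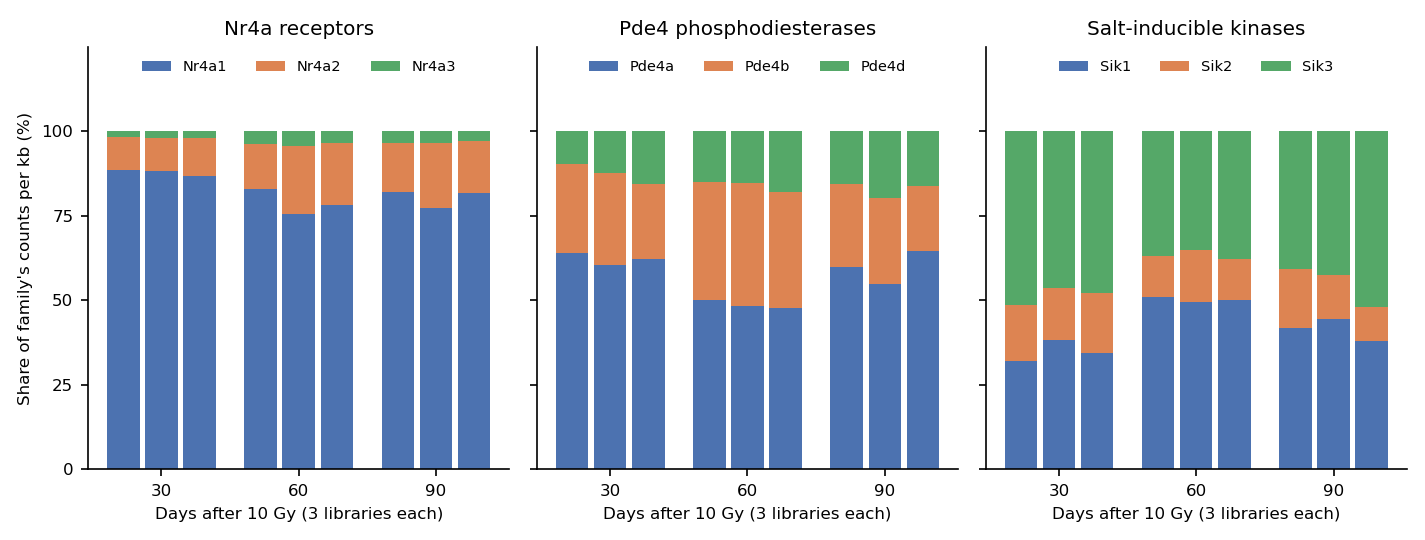
Share of each gene in the summed counts per kb of its family (y axis, percent) in each of the 9 libraries, grouped by days after 10 Gy (x axis). The Nr4a1 part is smaller in every library of days 60 and 90 than at day 30, and the Pde4b and Sik1 parts are larger in every library of day 60 than in any other.

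The rest of the pathway was examined from 7 lists of 127 genes, of which 103 could be tested: receptors and G proteins, adenylyl cyclases, protein kinase A, other cAMP effectors, phosphodiesterases, the CREB machinery, and other CREB targets. These lists were also chosen with earlier results of these data known. The tests on their genes are therefore not independent of the choice, and the shares below are descriptions. In 60 against 30 days, 4 of the 103 (3.88%) changed, against 1.56% of all genes; 2 rose and 2 fell, against 1.14% and 0.427% of all genes. In 90 against 60 days 2 changed (1.94%, against 0.256%), both lower, where 0.092% of all genes rose and 0.164% fell. In 90 against 30 days 5 changed (4.85%, against 3.57%), and 5 changed in the test over all 3 time points (4.85%, against 3.29%). Medians were near 0 in each comparison (-0.02, 0.04 and 0.08). By edgeR, no gene changed among the 19 of the protein kinase A list, the 14 other phosphodiesterases or the 14 of the CREB machinery. At an unadjusted p under 0.05, 5, 2 and 2 of these differed in 60 against 30 days (12.4% of all genes), 3, 2 and 0 in 90 against 60 days (10.8%), and 5, 3 and 1 in 90 against 30 days (16.8%). limma-voom called none of them, and DESeq2 called 1 (Pde3a, a phosphodiesterase that cyclic GMP inhibits, in 90 against 30 days).

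Receptors and cyclases, at the start of the pathway, held 3 of the 6 genes called in at least 1 of these comparisons. Adrb1, the beta1-adrenergic receptor, measured 164, 117 and 107 CPM at 30 days, 76.4, 64.2 and 57.2 CPM at 60 days, and 79.2, 93.7 and 70.6 CPM at 90 days. All 6 later values were below the 30-day values. Adrb1 fell by 0.97 ± 0.16 on the log2 scale from 30 to 60 days (edgeR adjusted p = 0.00594) and by 0.67 ± 0.16 from 30 to 90 days (adjusted p = 0.0304). The first call was lost without 60-day sample 2 (adjusted p = 0.0537). The second was lost without 30-day sample 1 (0.115), 60-day sample 2 (0.0533), 90-day sample 1 (0.0759) or 90-day sample 3 (0.127), with library totals alone (0.169) and with the 6 samples of the comparison only (0.0514). Vipr1, a receptor of vasoactive intestinal peptide (12.0, 11.8 and 11.0 CPM), and Gnas, which encodes the stimulatory G protein (44.3, 47.5 and 49.2 CPM), had no called difference.

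Of the 8 adenylyl cyclases tested, Adcy2 rose and Adcy9 fell (25% called in 90 against 30 days, against 3.57% of all genes). Adcy2 measured 4.11, 3.45 and 5.45 CPM at 30 days, 7.99, 7.91 and 8.05 CPM at 60 days, and 10.2, 12.7 and 10.1 CPM at 90 days, so that the 3 times did not overlap. The log2 difference was 1.34 ± 0.19 from 30 to 90 days (edgeR adjusted p = 0.000581) and 0.88 ± 0.19 from 30 to 60 days (adjusted p = 0.0230). The first call held under all 19 other settings, with a highest adjusted p of 0.00524. The second was lost without 30-day sample 1 (0.102), 30-day sample 2 (0.133) or 60-day sample 2 (0.0964), with library totals alone (0.0845) and with limma-voom (0.0564).

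Adcy9 measured 27.3, 24.8 and 26.1 CPM at 30 days, 23.6, 24.5 and 29.3 CPM at 60 days, and 17.8, 14.7 and 17.8 CPM at 90 days. The 90-day values were below all others. It fell by 0.64 ± 0.12 on the log2 scale from 30 to 90 days (edgeR adjusted p = 0.00637), a call lost without 90-day sample 2 (0.0517) and with library totals alone (0.212). From 60 to 90 days it fell by 0.62 ± 0.12 (adjusted p = 0.0350), but 7 of the 9 fits that left out 1 library lost this call, with adjusted p up to 0.209 without 90-day sample 2. Without 30-day sample 2 it was 0.0650, without 30-day sample 3 0.0532, without 60-day sample 2 0.125, without 60-day sample 3 0.0630, without 90-day sample 1 0.0509 and without 90-day sample 3 0.0790. Library totals alone gave 0.358, totals without the 10 most abundant genes 0.0716, and the 6 samples only 0.0616.

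Downstream of cAMP, Rapgef3, the exchange factor Epac1 that answers cAMP without protein kinase A, measured 139, 105 and 131 CPM at 30 days. It measured 77.4, 78.6 and 71.1 CPM at 60 days and 88.7, 66.0 and 85.5 CPM at 90 days, all below the 30-day values. It fell by 0.73 ± 0.13 on the log2 scale from 30 to 60 days (edgeR adjusted p = 0.00410, under the threshold in all 19 other settings). From 30 to 90 days it fell by 0.65 ± 0.12 (adjusted p = 0.00637), a call lost without 90-day sample 2 (0.0507) and with library totals alone (0.130). Prkaca, the main catalytic subunit of protein kinase A, had means of 40.4, 42.6 and 40.5 CPM, and Creb1 26.5, 27.6 and 29.0 CPM, with no called difference.

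Among 28 other CREB targets, 1 was called both from 30 to 60 and from 60 to 90 days (3.57%, against 1.56% and 0.256% of all genes). Dusp1, a phosphatase of MAP kinases, measured 3.97, 6.78 and 6.22 CPM at 30 days, 21.4, 19.1 and 38.8 CPM at 60 days, and 8.29, 5.64 and 6.48 CPM at 90 days. It rose by 2.21 ± 0.30 on the log2 scale from 30 to 60 days (edgeR adjusted p = 0.00394) and fell by 1.96 ± 0.28 from 60 to 90 days (adjusted p = 0.0181). The fall was not called without 90-day sample 2 (0.131), without 90-day sample 3 (0.0893) or with library totals alone (0.167). Per1, a clock gene with cAMP response elements, and the kinase gene Pim3 also had all 60-day values above the others, with means of 68.8, 107 and 39.5 CPM and of 146, 413 and 150 CPM. By edgeR neither passed the test from 30 to 60 days (adjusted p = 0.595 and 0.227) or from 60 to 90 days (0.295 and 0.319). DESeq2 and limma-voom both called Pim3 from 30 to 60 days and Per1 from 60 to 90 days, and limma-voom also called Pim3 from 60 to 90 days. DESeq2 alone called Btg2 from 30 to 60 days and Rgs2 from 60 to 90 days. These went the other way, with log2 differences of -0.43 and 0.88 under the size factors of DESeq2. Of the 28 targets, 3 had all 60-day values above all others and 2 had them below, against 1.82% and 1.9% of all genes. The median log2 difference of day 60 from the mean of days 30 and 90 was -0.03. Dusp1 and Per1 also belong to a list of glucocorticoid-induced genes, of which 11 were tested. By edgeR 3 of the 11 changed from 30 to 60 days (27.3%, against 1.56% of all genes), 2 higher and 1 lower. The higher genes were Dusp1 itself and Sgk1 (edgeR adjusted p = 0.00139), a call that held under all 19 other settings. The lower gene was Cdkn1a (adjusted p = 0.0412), a call lost in 9 of 19 settings, with adjusted p up to 0.218. All 60-day values were above all others in 3 of the 11, against 1.82% of all genes. Dusp1 and Per1, described above, are among these 3, so this count is not separate from their peaks. What drives these peaks was not tested.

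Arc, an activity-induced gene, had means of 11.4 ± 3.80, 18.9 ± 3.15 and 31.3 ± 9.13 CPM (SD over 3 libraries at each time) and rose between the first and the last by 1.45 ± 0.29 on the log2 scale (edgeR adjusted p = 0.0278). That call was lost without 30-day sample 3 (0.0610), 60-day sample 1 (0.0732), 90-day sample 2 (0.0876) or 90-day sample 3 (0.0805), and with the 6 samples only (0.0861). Fos, the prototype CREB-responsive immediate early gene, had means of 4.19, 2.47 and 2.53 CPM (60 against 30 days, adjusted p = 0.244). Egr1 had 22.1, 7.63 and 13.9 CPM (adjusted p = 0.297). By edgeR, none of the 17 genes of a list of immediate early and handling-stress genes passed the test in any comparison, and 5, 2 and 3 of them had an unadjusted p under 0.05 in 60 against 30, 90 against 60 and 90 against 30 days, where all genes had shares of 12.4%, 10.8% and 16.8%. limma-voom called none, and DESeq2 called 1 (Ier3 in 60 against 30 days). Both Fos and Egr1 had their lowest day-30 value in sample 1, the sample with the highest Nr4a1. That sample also had the lowest TMM factor of the 9 (0.824), and no cause of these values was tested.

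**Figure D4:**
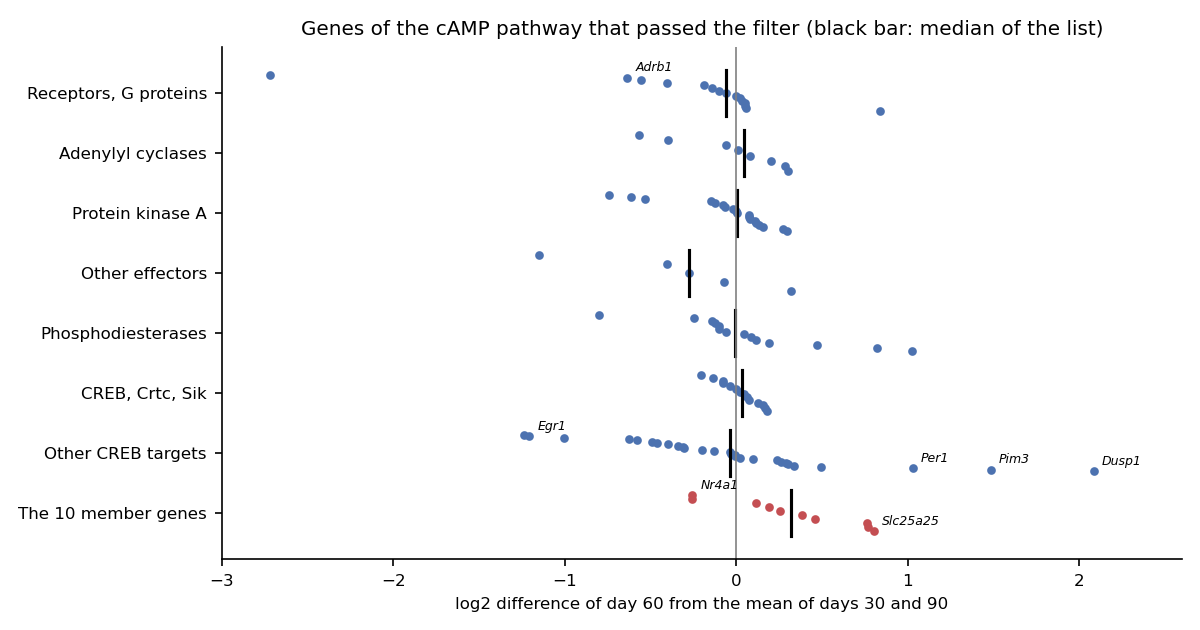
log2 difference of day 60 from the mean of days 30 and 90 (x axis) for each tested gene of 7 lists of the cAMP pathway (blue) and for the 10 listed genes (red), with the median of each list as a black bar; points are spread vertically only to separate them. Most lists centre near 0, and the 10 genes, chosen with this peak known, have a median of 0.32. Single genes lie far out on both sides, from -2.72 for Adora2b in the receptor list to 2.09 for Dusp1. The 60-day values of Adora2b were 0 to 0.125 CPM, at or below the level of 3 counts.

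For the mitochondrial members the relatives gave a similar contrast. Slc25a23 (75.6, 81.4 and 76.6 CPM) and Slc25a24 (7.93, 7.17 and 8.25 CPM), which encode related ATP-magnesium carriers, had no called difference. The share of Slc25a25 in the 3 carriers Slc25a23, Slc25a24 and Slc25a25, per kb, was 12.3% ± 0.810, 20.7% ± 4.18 and 14.7% ± 0.528 at 30, 60 and 90 days. Of 11 tested relatives and partners of Ppargc1a, 1 changed (9.09%, against 1.56% of all genes from 30 to 60 and 3.57% from 30 to 90 days). This was Esrrg, an orphan receptor that PGC-1 alpha coactivates, with means of 106, 155 and 143 CPM. It rose from 30 to 60 days by 0.56 ± 0.12 on the log2 scale (edgeR adjusted p = 0.0192) and was 0.44 ± 0.12 higher at 90 than at 30 days (adjusted p = 0.0410). The call at 60 days was lost without 30-day sample 1 (0.100), 30-day sample 2 (0.0861), 60-day sample 2 (0.101) or 60-day sample 3 (0.0539), with library totals alone (0.0968) and with totals without the 10 most abundant genes (0.0514). The call at 90 days was lost without 30-day sample 1 (0.182), 2 (0.131) or 3 (0.0661), 60-day sample 2 (0.0747), or 90-day sample 2 (0.178) or 3 (0.170), with limma-voom (0.0529) and with totals without the 10 most abundant genes (0.0718).

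Several measured features of the libraries moved with the time points, and their part in these results was not tested. Totals were 16541396 to 17179500 counts at 30 days and 20410818 to 26065856 later, and the Mucl2 gene of acinar cells took 31.4% to 42.8% of a library. 30-day sample 1, which had the highest Nr4a1, Ppargc1a and Adrb1, also had the highest acinar marker sum (647398 CPM, against 311061 to 533448 CPM in the other 8). Mucl2 made up 519000 CPM of that sum. Aqp5, Prol1, Slc12a2 and Ano1 were also highest in this sample, while Smgc and Dcpp1 were lowest in it. Bhlha15, another acinar marker, had all 60-day values above all others (567, 495 and 470 CPM, against 262 to 380 CPM), and Pip was highest in 60-day sample 2 (15480 CPM). In 90 against 60 days, 1 of 9 tested acinar markers was called lower, against 0.164% of all genes. Its TMM factor was the lowest of the 9 (0.824, against 0.892 to 1.186 in the others), and a low factor raises every CPM value of a sample. Acinar markers were lower at 90 than at 30 days by a median of 0.45 on the log2 scale, in the comparison in which Nr4a1 and Ppargc1a fell. Of these markers 2 of 9 were called lower, against 1.77% of all genes. Of 8 markers of granular convoluted ducts, 7 rose from 30 to 60 days and 7 from 30 to 90 days, against 1.14% and 1.81% of all genes. Their sum was 21083 to 29279 CPM at 30 days, 42098 to 51218 CPM at 60 days and 36943 to 50700 CPM at 90 days. Markers of skeletal muscle, which expresses Ppargc1a and Nr4a3, summed to 1.86 to 3.26 CPM with Myh4 and Pvalb at 0 in all libraries, and those of fat to 7.96 to 13.4 CPM with Ucp1 at 0. Lymphocyte markers summed to at most 2.56 CPM at 30 and 60 days and to 14.1 CPM in 90-day sample 2. In 90 against 30 days, 6 of 17 clock genes fell by edgeR, against 1.77% of all genes, and the hour of harvest was not given. Library totals alone left Per3 and Dbp and lost Per2, Cry2, Tef and Bhlhe40 (adjusted p = 0.101, 0.134, 0.0651 and 0.570), and Bhlhe40 was lost in 9 of 19 settings. Single libraries also lost Per2 (0.0507 without 90-day sample 2) and Cry2 (0.0541 without 30-day sample 1), and for Bhlhe40 30-day samples 1 and 2, 60-day sample 2 and each 90-day sample did so (0.0821 to 0.288).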

How the data were processed

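Total RNA from tissue sections of irradiated submandibular gland was made into 9 libraries with a SMARTer mRNA kit, per the labels' protocols. The deposited table holds whole-number counts of reads per Ensembl gene; fastp, STAR, featureCounts and the mm10 (GRCm38) build are named, without versions, in the submitters' processing notes. Use of strand and the annotation release are not given in the sources used here. Another 3 columns matched no sample and were not analysed here. Symbols and positions came from GENCODE M21, which matched 54495 of 54532 identifiers.

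Counts were fitted with edgeR 4.0.16 (R 4.3.3): filterByExpr with a minimum count of 10, TMM scaling, and robust quasi-likelihood tests on all 9 libraries with time point as the only term. p-values were adjusted by the Benjamini-Hochberg method over 15224 genes, with a threshold of 0.05. CPM was computed from the counts with TMM-scaled library sizes, and correlations used log2 CPM with a prior count of 2. The common biological coefficient of variation was 0.15. A count of 3 corresponded to 0.101 to 0.213 CPM on this scale, which covers counting error only. The procedure was tested on simulated data.

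The 10 genes and all lists were chosen with earlier results of these data known. The text names all 10, a fixed set of companion genes (Per1, Fos, Dusp1, Adrb1, Vipr1, Gnas, Prkaca, Creb1, Crtc1, Crtc3, Sik2 and Sik3; another is not reported here), of each pathway list up to 2 genes with the smallest adjusted p over all time points or genes that show its range, and the 3 genes of highest r for Sik1, Slc25a25, Pde4b, Ppargc1a and Nr4a1. Crtc3 had means of 15.9, 15.5 and 18.3 CPM. Arc, Pim3, Egr1, Btg2, Rgs2, Pde4a, Pde3a, Ier3, Sgk1, Cdkn1a, Per2, Per3, Cry2, Dbp, Tef and Bhlhe40 were named after their values were seen. Alternatives were other scalings (size factors of DESeq2, library totals, totals without the 10 most abundant genes), DESeq2 1.42.0, limma-voom (limma 3.58.1), other filters, equal depth, the 6 samples of a comparison only, each library left out, and the sample number as a block.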

Additional observations from a re-analysis of the deposited data

How the results depend on the processing

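With the 9 libraries left out in turn, genes called ran as follows. Of the 10 listed genes in 90 against 30 days (2 called), 0 to 3 were called. Of the 103 other pathway genes, 4 to 9 were called over all time points (5), 2 to 5 in 60 against 30 days (4), 0 to 2 in 90 against 60 days (2) and 2 to 5 in 90 against 30 days (5). Of all genes, 220 to 683 were called over all time points (501), 73 to 244 in 60 against 30 days (238), 16 to 103 in 90 against 60 days (39) and 184 to 703 in 90 against 30 days (544).

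With library totals alone the counts were 0 of the 10 genes, 0 pathway genes in 90 against 60 days and 2 in 90 against 30 days, and 277 of all genes over all time points and 90 in 60 against 30 days. With totals without the 10 most abundant genes, 1 pathway gene was called in 90 against 60 days. DESeq2 called 11 pathway genes over all time points and 4 in 90 against 60 days, and 847, 369, 141 and 860 of all genes in the 4 comparisons in the order above. limma-voom called 1 of the 10 genes, 8 pathway genes over all time points and 4 in 90 against 60 days, and 333 of all genes over all time points and 152 in 60 against 30 days. Without a filter on low counts, 12, 7 and 10 pathway genes were called over all time points, in 90 against 60 and in 90 against 30 days, and 1194, 459, 354 and 1045 of all genes. With the 6 samples of the comparison only, 1 pathway gene was called in 90 against 60 days and 3 in 90 against 30 days. The cause of these shifts was not tested.

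Other scalings also moved the direction of calls over all genes. In 60 against 30 days, 173 genes were higher and 65 lower with TMM, 79 and 11 with totals alone, and 103 and 112 without the 10 most abundant genes. In 90 against 60 days the split was 14 and 25 with TMM and 19 and 9 with totals alone. In 90 against 30 days it was 212 and 385 without the 10 most abundant genes.

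Same-numbered samples did not deviate together (r from -0.06 to 0.19), so the numbers were not taken as pairs. With the number as a block, 3 of the 10 genes were called in 90 against 30 days, with an adjusted p of 0.0181 for Pde4d, 8 pathway genes over all time points, and 92 of all genes in 90 against 60 days.

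The median 60-day difference of the 10 genes (0.32) ran from 0.25 to 0.41 over 18 alternatives. The median correlation was 0.25 with Spearman's rho, and 6 of the genes held an element when only bases before the start were searched.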
